A study of Mus musculus with 30 samples.

Results

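The 10 genes described here encode surface proteins and one secreted protein of endothelial cells, the cells that line blood vessels: Pecam1, Cdh5, Kdr, Flt1, Tek, Tie1, Eng, Vwf, Emcn and Esam. They were taken by name as known endothelial and angiogenic receptor genes, and for each the transcript row with the highest mean was used. All 10 passed the filter on low values (a mean of at least 1 RPKM, the reads of a transcript scaled to its length and to the library size), among 13613 genes that did and 20849 named genes in all. Their levels were followed across mammary tumours of 30 mice, 1 tumour per animal.

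Each tumour was induced by PyMT, the polyoma middle T antigen, a viral oncogene. The mice came from the backcross ((MOLF x PyMT) x FVB), in which MOLF is a wild-derived strain and FVB an inbred one, so that animals differ in the MOLF segments they carry. By the labels the 30 tumours form 1 group. Treatment, age, stage and the genotype of single animals are not stated there, nor is the promoter of the oncogene or the proportion of tumour cells. The only comparisons the design allows are therefore relations across tumours. The tissue carried strong luminal epithelial markers: Krt8 averaged 515 ± 112 RPKM, Krt18 521 ± 112 and Epcam 442 ± 74.7 (SD, n = 30). The depth recovered from the values fell into 14 deep libraries of 116.9 to 196.5 M reads (M, mega) and 16 shallow ones of 42.6 to 62.0 M reads, and the relations below were recomputed within both classes.

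Blood vessels grow and are kept stable through a few receptor systems. Vascular endothelial growth factor A (Vegfa) drives sprouting through its receptor Kdr (VEGFR2), while Flt1 (VEGFR1) binds the same ligand tightly and can act as a decoy. The angiopoietins act on Tek (Tie2): Angpt1 is a stabilising agonist released mainly by cells around the vessel, and Angpt2 is a context-dependent antagonist released by endothelial cells. Tie1 is an orphan relative that modulates Tek, and Eng (endoglin) is a co-receptor for ligands of the TGF-beta family. Pecam1, Cdh5 (VE-cadherin) and Esam join endothelial cells to each other, Emcn (endomucin) is a sialomucin of capillaries and veins, and Vwf (von Willebrand factor) is stored by endothelial cells and megakaryocytes and binds platelets.

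The 4 receptor tyrosine kinases are shown by the 250 bases before the transcription start, because endothelial promoters are known for sites of ETS factors, whose core is GGAA. The sequences are from RefSeq on GRCm38.p6, written 5′ to 3′ on the strand of the gene, with GGAA and its reverse complement TTCC in capitals. They lie at chr5:75978456-75978705 on the minus strand for Kdr, chr5:147726012-147726261 on the minus strand for Flt1, chr4:94739039-94739288 on the plus strand for Tek and chr4:118489850-118490099 on the minus strand for Tie1.
Kdr: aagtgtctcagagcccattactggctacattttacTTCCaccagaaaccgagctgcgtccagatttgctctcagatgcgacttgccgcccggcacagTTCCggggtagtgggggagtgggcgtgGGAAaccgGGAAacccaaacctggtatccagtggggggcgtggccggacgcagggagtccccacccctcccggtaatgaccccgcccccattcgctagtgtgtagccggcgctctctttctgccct
Flt1: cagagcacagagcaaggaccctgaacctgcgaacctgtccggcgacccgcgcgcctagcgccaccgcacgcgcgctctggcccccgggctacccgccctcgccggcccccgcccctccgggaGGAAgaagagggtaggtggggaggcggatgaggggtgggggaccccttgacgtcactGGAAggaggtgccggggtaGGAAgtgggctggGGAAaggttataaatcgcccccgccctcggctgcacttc
Tek: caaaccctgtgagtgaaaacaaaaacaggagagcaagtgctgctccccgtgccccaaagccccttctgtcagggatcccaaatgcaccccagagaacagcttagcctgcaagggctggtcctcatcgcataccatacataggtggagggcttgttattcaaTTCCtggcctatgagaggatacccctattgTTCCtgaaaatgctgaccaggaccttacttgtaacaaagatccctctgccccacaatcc
Tie1: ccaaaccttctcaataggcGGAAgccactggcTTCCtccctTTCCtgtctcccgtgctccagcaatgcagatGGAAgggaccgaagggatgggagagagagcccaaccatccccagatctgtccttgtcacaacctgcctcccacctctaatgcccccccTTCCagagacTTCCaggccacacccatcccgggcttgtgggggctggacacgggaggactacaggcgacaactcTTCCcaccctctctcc
Tie1 held 7 of these short matches, Kdr and Flt1 4 each, and Tek 2. The median over 32851 windows of the same length was 3, and 33.4% of the windows held 4 or more. Of the 10 genes 6 had a promoter entry (Emcn and Eng besides these), and all 6 held GGAA on either strand, as did 93.4% of all windows. The longer form CAGGAAG, which contains GGAA, was in 1 of the 6 (Emcn) and in 10.8% of all windows. The form CCGGAAG and the GATA-like AGATAA were in 0 of the 6, against 6.91% and 9.99% of all windows. These counts describe letters in a window and no binding was measured.

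The levels of the 10 genes spanned a range of means from 14.9 to 2.07 RPKM, and no gene was at 0 in any tumour. Eng was the most abundant per length, with 5.47 RPKM in the lowest tumour, a median of 14.4 and 28.7 in the highest (14.9 ± 4.87, mean ± SD, n = 30). Pecam1 followed with 5.08, 13.1 and 26.9 RPKM (13.6 ± 4.82), and Cdh5 with 3.98, 9.69 and 21.2 RPKM (10.5 ± 3.79). The junction gene Pecam1 exceeded Cdh5 in 30 of 30 tumours, whereas Eng exceeded Pecam1 in 20 of 30, so the first 2 places in the order were not separated in every tumour.

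A middle group of 3 genes lay close together. Emcn had 4.46 RPKM in the lowest tumour, a median of 7.51 and 12.3 in the highest (8.0 ± 1.92), Esam had 3.87, 7.57 and 15.5 RPKM (7.73 ± 2.50), and Tie1 had 3.45, 6.71 and 12.4 RPKM (7.02 ± 1.92). Emcn exceeded Esam in 20 tumours and Esam exceeded Tie1 in 21, and the mean log2 ratios of RPKM, 0.08 and 0.12, were below the SD of these ratios over the tumours (0.19 and 0.23). Cdh5 exceeded Emcn in 26 tumours.

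The receptor kinases Kdr, Flt1 and Tek and the secreted Vwf were lowest. Kdr had 1.37 RPKM in the lowest tumour, a median of 4.67 and 11.2 in the highest (4.70 ± 1.99), and Flt1 had 1.95, 2.91 and 5.29 RPKM (3.11 ± 0.827). Tek had 0.485, 2.07 and 5.89 RPKM (2.23 ± 1.19), and Vwf had 0.249, 1.72 and 7.80 RPKM (2.07 ± 1.5). Tie1 exceeded Kdr in 29 tumours, Kdr exceeded Flt1 in 27 and Flt1 exceeded Tek in 26, but Tek exceeded Vwf in only 20. Vwf had the widest spread, with an SD of 0.60 on log2(RPKM + 1), and Flt1 the narrowest, at 0.27. The median SD of all tested genes was 0.27, and all 10 genes lay above it.

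**Figure D1:**
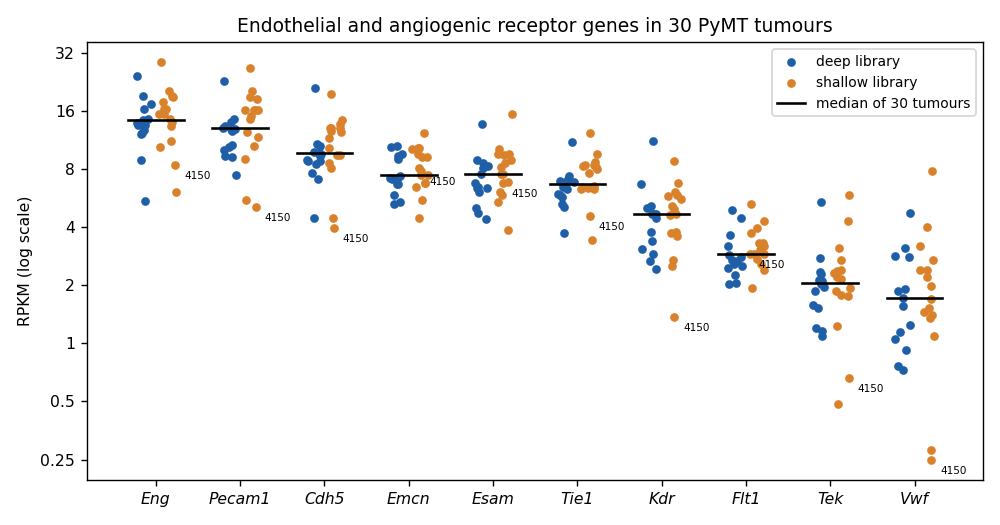
RPKM (log scale) of each of the 10 genes, ordered by mean, with 1 point per tumour, deep libraries left and shallow libraries right of each centre, a line at the median of 30 tumours and animal 4150 named. Eng and Pecam1 sit highest, Vwf covers the widest range (0.249 to 7.80 RPKM), and animal 4150 is lowest for Pecam1, Cdh5, Kdr and Vwf but close to the median for Emcn, Esam and Flt1.

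The same few tumours held the high and the low ends. The tumour of animal 3273 was highest for 8 of the genes (not Cdh5 and Kdr) and was among the 5 highest for all 10, with a sum over the 10 genes of 143 RPKM. Animal 4036 was also among the 5 highest for all 10 (sum 130.0 RPKM), with the highest Kdr (11.2 RPKM) and Cdh5 (21.2 RPKM). Animal 4357 came next and was among the 5 highest for 7 genes (95.2 RPKM). At the low end, animal 4438 summed to 34.3 RPKM and animal 3654 to 37.7 RPKM, and each was among the 5 lowest for 9 genes. The tumour of animal 4438 held the lowest Emcn, Esam, Tie1 and Tek, but its Flt1 (2.92 RPKM) lay at the median of 30 tumours. It also had the highest hypoxia score, 3.28 SD above the mean, and the highest Vegfa, 75.6 RPKM against a median of 17.2.

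Animal 4150 was low in a different way. Its sum was 41.9 RPKM and it was among the 5 lowest for 7 genes, with Kdr at 1.37, Vwf at 0.249 and Tek at 0.663 RPKM, but Emcn (7.84 RPKM), Esam (6.80) and Flt1 (2.91) were near their medians. In this library long transcripts read low across the table. The slope of a gene's deviation from its mean on log2 transcript length, over 13518 genes, was −0.27 in animal 4150, against −0.11 in the next lowest library and 0.10 in the highest. The r of each gene's level with this slope over the 30 tumours ran between 0.57 for Kdr (5924 bases) and −0.05 for Emcn (2588 bases). It did not follow the length of the 10 transcripts throughout: the longest, Vwf (8834 bases), had 0.39 and the next, Flt1 (6895 bases), had 0.19, and Flt1 was near its median in animal 4150. Results that changed without this library are named as such.

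**Figure D2:**
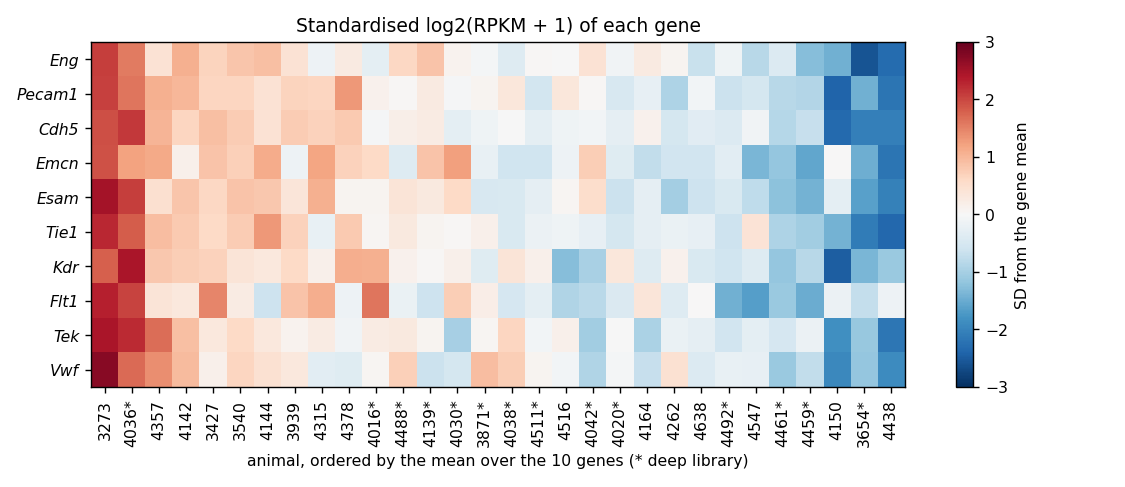
Level of each gene in each tumour as SD from the gene's mean on log2(RPKM + 1), with tumours ordered by the mean over the 10 genes and a star at deep libraries. Animals 3273 and 4036 are high and 3654 and 4438 low across nearly all rows, and in animal 4150 the Emcn, Esam and Flt1 cells stay pale while Kdr, Pecam1 and Cdh5 are dark blue.

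The 10 genes varied together. Over the 45 pairs, Pearson's r on log2(RPKM + 1) had a median of 0.80 and ran between 0.50 and 0.96 (Spearman's rho 0.41 to 0.94), against a median r of 0.01 over all pairs of tested genes. The closest pairs were Pecam1 with Cdh5 (r = 0.96), both components of the junction, Cdh5 with Tie1 (0.93), Tek with Vwf (0.93), Eng with Tie1 (0.91) and Emcn with Esam (0.90). With the 2 most extreme tumours of the first gene left out, r ran between 0.24 and 0.93, and it ran between 0.29 and 0.96 in deep and between 0.37 and 0.97 in shallow libraries. Flt1 had the lowest median r with the other 9 genes, 0.57, and with the 2 most extreme tumours left out its r was 0.24 with Tek and 0.26 with Vwf.

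The pairs were tested by regressing every tested gene on the level of each of the 10 in turn, with limma and Benjamini-Hochberg adjustment over all genes at 0.05. Of the 90 ordered pairs, 86 were called, all higher with their partner. When 1 of the 9 genes other than Flt1 was the predictor, all 9 partners were called. When Flt1 was the predictor, 5 of 9 partners were called (Pecam1, Cdh5, Kdr, Emcn and Esam), and the Tek slope was 0.25 ± 0.07 (SE, log2 units per SD of Flt1, adjusted p = 0.0835). The share of all tested genes called higher was 1.28% on Flt1, 5.52% on Emcn, 8.3% on Esam, 10.2% on Tie1, 10.5% on Vwf, 10.6% on Pecam1, 10.7% on Eng, 10.9% on Tek, 11.3% on Kdr and 11.4% on Cdh5. The count was 52 of 90 within deep and 69 within shallow libraries, for which the shares of all genes are not given here.

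To relate the 10 genes to endothelial content, a core endothelial score was built from 11 other endothelial genes (Cldn5, Robo4, Erg, Sox18, Egfl7, Ecscr, Mmrn2, Clec14a, Rasip1, Ptprb and Adgrl4), as the mean of their standardised levels divided by its SD. All 10 genes were higher in tumours with a higher score, against 10.8% of all tested genes (limma, adjusted p under 0.05). The median slope was 0.40 log2 units per SD for the 10 and −0.02 for all tested genes. In bulk tumours fewer endothelial cells and less RNA per cell cannot be told apart. Within deep libraries 8 of 10 were called (not Flt1 and Emcn) and within shallow ones 9 (not Flt1). Among all tested genes, 639 were called in deep and 1467 in shallow libraries, in either direction.

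The steepest slope was that of Vwf (0.51 ± 0.06 log2 units per SD, adjusted p = 1.81e-07, limma). Pecam1 and Cdh5 followed at 0.45 ± 0.04 each (adjusted p = 7.62e-10 and 5.25e-10), with Eng at 0.42 ± 0.04 and Tek at 0.42 ± 0.04. Kdr had 0.38 ± 0.06, Esam 0.36 ± 0.03, Tie1 0.32 ± 0.03 and Emcn 0.25 ± 0.04. Flt1 had the smallest slope, 0.16 ± 0.04 (adjusted p = 0.00798), and it was no longer called without animals 3273 and 4036 (0.08 ± 0.04, adjusted p = 0.276) or without animal 3273 alone (adjusted p = 0.0538). Whether slopes differ between the 10 genes was not tested.

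**Figure D3:**
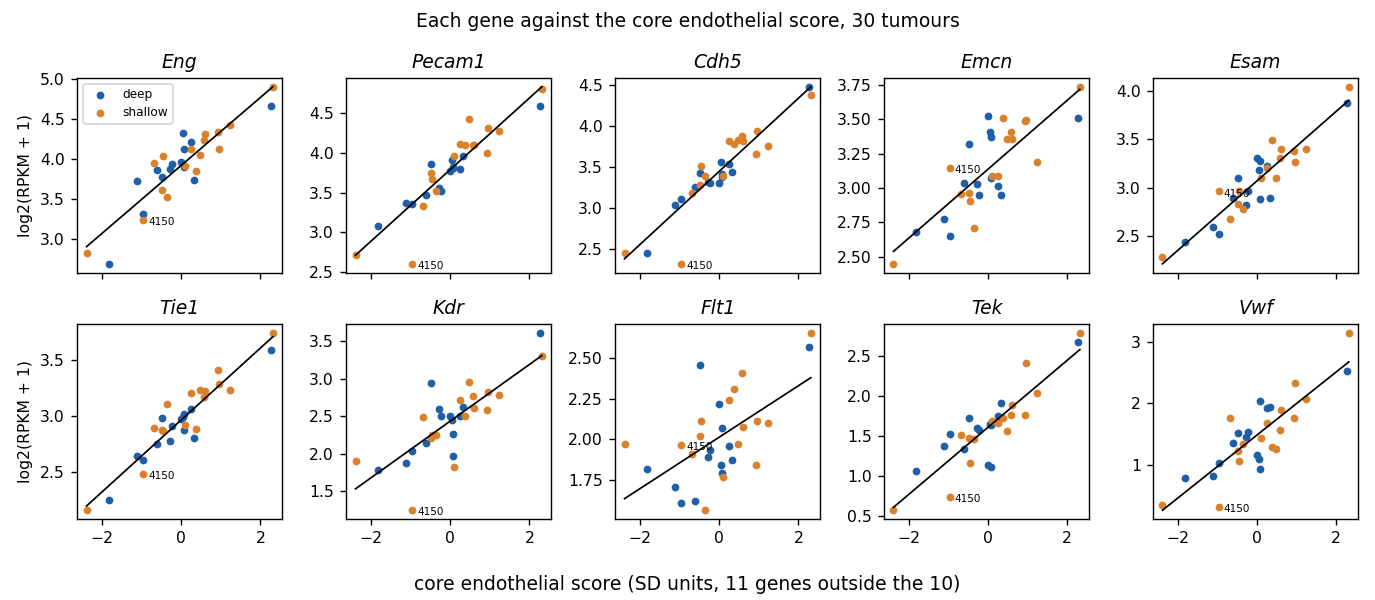
log2(RPKM + 1) of each gene against the core endothelial score (SD units), 1 point per tumour coloured by depth class, with a least-squares line and animal 4150 named. The slopes of Tie1 and Esam have the smallest SE (0.03 each), Flt1 has the flattest line (slope 0.16), and animal 4150 lies far below the line for Kdr, Pecam1 and Cdh5.

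The ligands of these receptors were read against the same score, on which 10.8% of all tested genes were higher. Of 8 tested ligands, 4 were higher with the core endothelial score and 0 lower: Vegfd and Vegfc, which act mainly on the lymphatic receptor Flt4, Tgfb1, and the Tek agonist Angpt1 (0.35 ± 0.07 log2 units per SD, adjusted p = 0.000287, limma). Vegfa had a slope of −0.20 ± 0.14 (adjusted p = 0.325), Angpt2 −0.04 ± 0.05 (0.566) and the Flt1 ligand Pgf 0.10 ± 0.12 (0.603). Vegfa averaged 21.2 ± 15 RPKM and Angpt1 and Angpt2 2.94 ± 1.41 and 3.25 ± 0.740 RPKM.

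With Vegfa as predictor, 0 of the 10 genes were called, against 0.118% of all tested genes, and 1 (Tek, −0.19 ± 0.08) had an unadjusted limma p under 0.05. The main receptor Kdr had a slope of −0.11 ± 0.09 (log2 units per SD of Vegfa, adjusted p = 0.743) and Flt1 one of 0.08 ± 0.05 (0.645). With the hypoxia score, built from 13 hypoxia-induced genes such as Car9 and Ndrg1, 0 of 10 were called against 0.228% of all genes, and 1 (Tek, −0.20 ± 0.08) had an unadjusted limma p under 0.05. Vegfa itself was higher with that score (0.71 ± 0.07, adjusted p = 4.72e-07), and so was the tip cell gene Esm1 (0.30 ± 0.07, adjusted p = 0.039).

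Receptor and ligand levels were also set side by side for 8 pairs, with 100000 permutations and adjustment over the 8. Tek and Angpt1 were related (r = 0.60, permutation p = 0.0004, adjusted p = 0.0032; rho = 0.57), and r was 0.49 with the 2 most extreme tumours left out, 0.50 in deep and 0.70 in shallow libraries. Tek and Angpt2 were not shown to be related (r = −0.18, permutation p = 0.338). Eng with Tgfb1 reached r = 0.49 (permutation p = 0.00677, adjusted p = 0.0271; rho = 0.37 with adjusted p = 0.0921). Kdr with Vegfc had r = 0.37 (permutation p = 0.0452, adjusted p = 0.121), Flt1 with Vegfa r = 0.31 (p = 0.101) and Kdr with Vegfa r = −0.22 (p = 0.242; rho = −0.06). With the 2 most extreme tumours left out, r of Kdr with Vegfa was −0.03, and the limma slope of Kdr on Vegfa was −0.03 ± 0.08 without animal 4150.

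**Figure D4:**
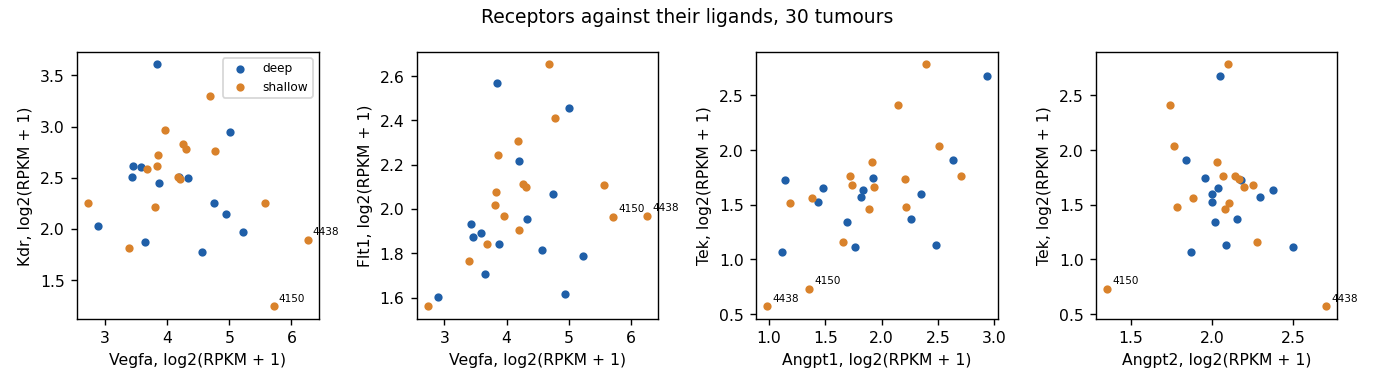
Kdr and Flt1 against Vegfa, and Tek against Angpt1 and Angpt2, all on log2(RPKM + 1), 1 point per tumour coloured by depth class, with animals 4438 and 4150 named. Tek runs upward with Angpt1 (r = 0.60), while animals 4438 and 4150 combine the highest Vegfa with low Kdr and low Tek.

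Ratios within a tumour show the receptor balance per length. Kdr over Flt1 had a median of 1.56 and was above 1 in 27 tumours, with 2.33 in animal 4378. The lowest ratio, 0.470, was in animal 4150, with Kdr at 1.37 and Flt1 at 2.91 RPKM. Long transcripts read low in this library, and Flt1 (6895 bases) is longer than Kdr (5924 bases). The cause of this ratio was not tested. In the other tumours below 1, Kdr was only just under Flt1: 2.72 and 2.92 RPKM in animal 4438, and 2.43 and 2.52 RPKM in animal 3654. Tie1 exceeded Tek in all 30 tumours, with a median ratio of 3.34 and the highest ratio, 7.12, in animal 4438. Angpt2 over Angpt1 had a median of 1.23 and was highest in the same animal 4438 (5.63) and lowest in animal 4036 (0.472), one of the tumours richest in the 10 genes.

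Other genes of the vascular programme were read from lists, against 10.8% of all tested genes called higher on the core endothelial score. Of 19 co-receptors and signalling genes, 11 were higher with the core endothelial score and 0 lower, led by Plxnd1, a semaphorin receptor (0.41 ± 0.04 log2 units per SD), the Vegfa co-receptor Nrp1 (0.47 ± 0.05) and the apelin receptor Aplnr (0.46 ± 0.05). The abundant Ephb4 (40.4 ± 8.18 RPKM), Notch1 (37.9 ± 11.7 RPKM) and Tgfbr2 (35.6 ± 11.5 RPKM) are known from other cell types too, and of these Tgfbr2 was called. Of 9 endothelial transcription factors outside the core score (Erg and Sox18 are part of it) 5 were higher, among them the flow-responsive Klf2 (0.40 ± 0.06), and of 7 vessel basement membrane genes all 7, led by Nid1 (0.67 ± 0.06), Hspg2 (0.50 ± 0.07) and Col4a1 (0.40 ± 0.08). The median slopes of these 3 lists were 0.18, 0.24 and 0.40, against −0.02 for all tested genes. The rise was not particular to vascular lists. On the same score 8 of 8 adipocyte genes (median slope 1.07) and 12 of 13 stroma matrix genes (0.56) were higher, while 11 of 15 proliferation genes were lower.

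Markers of vessel subtypes were counted in the same way, in short lists and against the same 10.8% of all tested genes. Of 8 tip cell genes, 3 were higher with the core score (Nid2, Pdgfb and Dll4), while Esm1 had −0.06 ± 0.09 and Apln −0.04 ± 0.14. Of 5 venous and activated genes 3 were higher (Ackr1 0.45 ± 0.06, Selp and Vcam1) and of 4 arterial genes 2 (Gja4 and Dll4). Of 4 lymphatic genes 2 were higher (Lyve1 0.55 ± 0.08 and Pdpn), while Flt4 and Ccl21a were not called. The listed Prox1 (mean 0.64 RPKM) fell under the filter, and the cell source of Lyve1 and Pdpn was not tested. Platelets also hold Vwf and Pecam1, and of 4 tested platelet genes 1 was called, Pf4 (0.66 ± 0.08), which macrophages also express. Itga2b, a platelet integrin at 5.99 ± 1.78 RPKM, had a slope of 0.00 ± 0.07. Its level was above those of Gp9, Ppbp, Gp6 and Clec1b (means 0.58, 0.21, 0.18 and 0.10 RPKM), which fell under the filter. Whether its reads came from platelets was not tested. The 9 listed platelet genes summed to between 11.1 and 32.4 RPKM in deep and between 13 and 29.9 RPKM in shallow libraries, and Clec1b was at 0 in 7 tumours and Gp6 in 2. Leucocytes also express Pecam1, and of 10 leucocyte genes 8 were higher, with sums of 241 to 427 RPKM in deep and 220 to 445 RPKM in shallow libraries. The part of both cell types in the levels of the 10 genes was not tested.

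The 10 genes also followed other compartments of the tumour. All 10 were higher with a stroma matrix score of 13 fibroblast and collagen genes, against 9.9% of all genes, with slopes between 0.15 ± 0.04 (Flt1, adjusted p = 0.0157) and 0.45 ± 0.07 (Vwf) (log2 units per SD, limma). Flt1 was not called without animal 4036 (0.11, adjusted p = 0.098). The count was 8 within deep and 9 within shallow libraries, where 613 and 1203 of all tested genes were called in either direction. The stroma score and the core endothelial score were themselves related (r = 0.83). At equal core endothelial score, 0 of 10 genes were called on stroma, against 1.13% of all genes, and 2 (Tek and Cdh5) had an unadjusted limma p under 0.05.

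With a mural cell score (Rgs5, Pdgfrb and 7 other genes of the pericytes and smooth muscle cells that wrap vessels) all 10 genes were higher, against 5.3% of all genes, with slopes between 0.21 ± 0.04 for Emcn and 0.39 ± 0.08 for Vwf. Without animals 3273 and 4036, 0 of 10 passed the threshold, as did only 3 of all tested genes, while the 10 slopes stayed positive, between 0.14 and 0.26. The count was 7 within deep libraries and 0 within shallow ones, where 1 of all tested genes passed and the 10 slopes lay between 0.18 and 0.43. At equal core endothelial score 1 gene was called, Flt1 (0.23 ± 0.05, adjusted p = 0.0478), against 0.0882% of all genes. Its slope without animals 3273 and 4036 was 0.18 ± 0.04 (adjusted p = 0.203), and it was called in 5 of the 30 fits that each left out 1 tumour.

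With an adipocyte score of 8 fat cell genes, 8 of 10 genes were higher, against 6.96% of all genes, with Vwf (0.47 ± 0.07) and Tek (0.39 ± 0.05) steepest. Flt1 (0.11 ± 0.05, adjusted p = 0.18) and Emcn (0.13 ± 0.05, adjusted p = 0.112) were not called. The count was 1 within deep and 4 within shallow libraries, and 2 without animals 3273 and 4036, the tumours with the highest adipocyte scores (1.99 and 2.54 SD). In these 3 fits 193, 623 and 437 of all tested genes were called, in either direction. With a proliferation score of 15 cell cycle genes such as Mki67 and Top2a, 8 of 10 were lower, against 7.78% of all genes, for instance Emcn (−0.19 ± 0.05, adjusted p = 0.00437), Esam (−0.24 ± 0.06, 0.00425) and Eng (−0.25 ± 0.07, 0.0139). Flt1 (−0.09 ± 0.05, adjusted p = 0.216) and Vwf (−0.27 ± 0.10, 0.0604) were not called, although Vwf was called when animal 3939, 4150 or 4378 was left out (lowest adjusted p = 0.0342). This count fell to 2 without animal 4036 and to 3 without animal 4438, for which the shares of all genes are not given here. It was 0 within deep and 1 within shallow libraries, where 321 and 515 of all tested genes were called in either direction.

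At equal core endothelial score, 0 of 10 genes were called on proliferation (6.41% of all genes were), with 1 unadjusted limma p under 0.05 (Cdh5), and 0 on hypoxia (0.272% of all genes), with 2 (Flt1, 0.14 ± 0.04, and Esam, 0.07 ± 0.03). The same held for Vegfa (0 of 10, against 0.118%), with 4 unadjusted limma p under 0.05. Of these, Flt1 (0.13 ± 0.04, adjusted p = 0.321), Esam (0.08 ± 0.03) and Emcn (0.08 ± 0.04) had positive slopes and Tek a negative one (−0.09 ± 0.04).

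**Figure D5:**
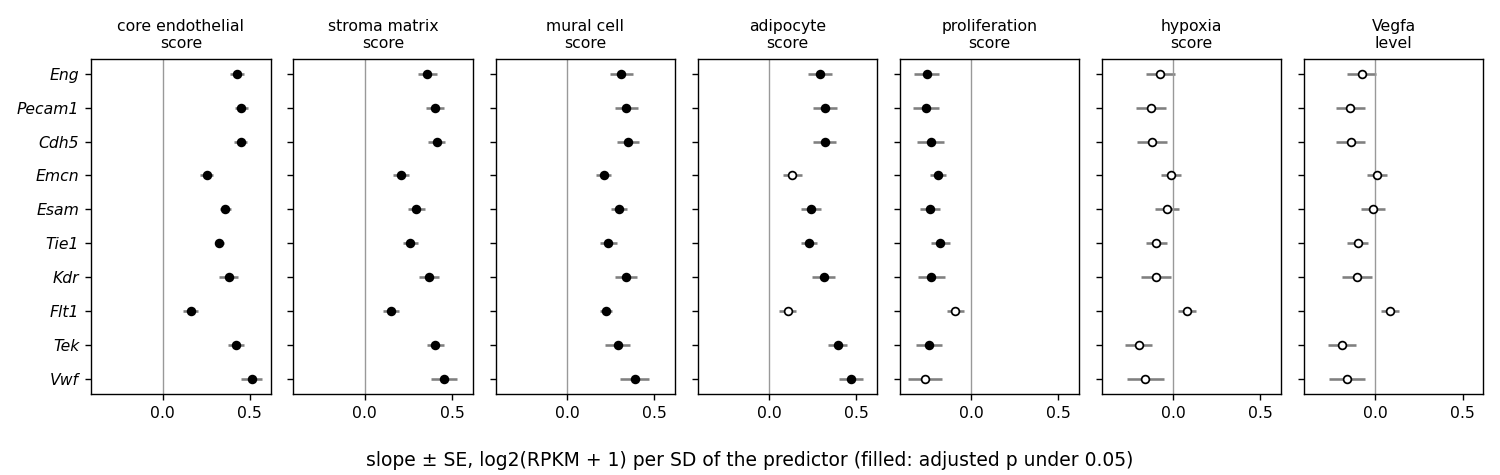
Slope ± SE of each gene (log2(RPKM + 1) per SD) on 6 list scores and on Vegfa, with filled points for an adjusted p under 0.05. The slopes on core endothelial, stroma matrix and mural cell scores are filled for all 10 genes, those on hypoxia and Vegfa are open for all 10, and Flt1 has the smallest slope in the core endothelial panel.

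What the 10 genes shared beyond the core endothelial score was read by adding that score to the fits of each gene on another, chosen after seeing the data. Of the 90 ordered pairs, 6 were then called with limma, all higher: Pecam1 with Cdh5 in both orders, Cdh5 with Kdr in both, and Tek with Vwf in both. The slope of Vwf on Tek was 0.48 ± 0.09 log2 units per SD (adjusted p = 0.0148), and that of Kdr on Cdh5 was 0.47 ± 0.12 (adjusted p = 0.00471). Of all tested genes, 11.1% were then called higher on Cdh5, 7.71% on Kdr, 6.94% on Tek, 5.1% on Pecam1, 2.53% on Eng, 0.132% on Vwf, 0.00735% on Esam and 0% on Flt1, Tie1 and Emcn. By predictor, 2 of 9 partners were called on Cdh5 and 1 of 9 each on Pecam1, Kdr, Tek and Vwf. On Cdh5, Kdr, Tek and Pecam1 counts this small do not set the 10 genes apart from all tested genes. With the length slope added as well, 1 ordered pair was called, Pecam1 on Cdh5 (0.40 ± 0.10, adjusted p = 0.0214, against 2.31% of all genes called higher on Cdh5).

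At equal core endothelial score the slopes on a leucocyte score differed in sign among the 10 genes. Against 1.59% of all genes, 0 of 10 were called, and 6 had an unadjusted limma p under 0.05: Kdr (0.23 ± 0.07, adjusted p = 0.0888), Pecam1 (0.14 ± 0.05), Cdh5 (0.13 ± 0.05) and Tek (0.13 ± 0.06) with positive slopes, and Emcn (−0.13 ± 0.05) and Esam (−0.11 ± 0.04) with negative ones. Emcn and Esam have the shortest transcripts of the 10 (2588 and 1865 bases), and animal 4150, where long transcripts read low, had the lowest leucocyte score (−2.26 SD). Without that tumour the slope was 0.15 ± 0.07 for Kdr, 0.04 ± 0.04 for Pecam1 (adjusted p = 0.698), 0.05 ± 0.04 for Cdh5 (0.646), 0.09 ± 0.06 for Tek, −0.12 ± 0.05 for Emcn and −0.09 ± 0.04 for Esam. With the length slope as covariate they were 0.13 ± 0.07 for Kdr, 0.10 ± 0.05 for Pecam1, 0.06 ± 0.04 for Cdh5, 0.06 ± 0.06 for Tek, −0.12 ± 0.05 for Emcn and −0.10 ± 0.05 for Esam. The negative slopes of Emcn and Esam thus changed little in either fit. The cause of the difference in sign was not tested.

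The technical variables were tested in the same way. On insert size, the one technical value in the labels, 0 of 10 genes were called, against 0.0367% of all genes, and 4 (Pecam1, Cdh5, Tie1 and Eng) had an unadjusted limma p under 0.05, with slopes of 0.14 to 0.19 log2 units per SD. Between deep and shallow libraries 0 of 10 were called, against 1.24% of all genes, and 0 had an unadjusted limma p under 0.05. Insert size and depth class were themselves related (r = −0.73, mean insert size 233 in deep and 261 in shallow libraries), so these are not separate checks. All 10 slopes on depth class were negative, between −0.17 (Tie1) and −0.04 (Kdr) log2 units for deep minus shallow. All 10 medians were lower in deep libraries, although 3 slopes changed sign when some single tumour was left out. Median Cdh5 was 9.15 RPKM in deep and 12.03 RPKM in shallow libraries, median Pecam1 12.8 and 15.6 RPKM, and median Kdr 4.57 and 4.84 RPKM.

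Outside the 10 genes and the core endothelial list, the genes most like them by mean Pearson's r over the 30 tumours (log2 scale, 13603 genes ranked, median −0.07) were Nid1 (0.83), Cd209f (0.82), Cd93 (0.81), C1ra (0.81), Cd34 (0.81), Fstl1 (0.81), Plxnd1 (0.81), Fgd5 (0.81), Fzd4 (0.81) and Scara3 (0.80). Nid1 is a basement membrane linker, Cd93 and Cd34 are surface glycoproteins of endothelial and progenitor cells, and Fstl1 is a secreted stromal glycoprotein. At the other end were Tada2a (−0.76), Cdc123 (−0.74), Pum3 (−0.72), Eif4a1 (−0.72) and Gtf2b (−0.72), of which Eif4a1 is a translation initiation helicase and Gtf2b a general transcription factor.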

How the data were processed

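Poly-A selected RNA of 30 tumours was sequenced, per the labels' protocols. All 30 columns of the RPKM table that the authors deposited (27902 transcripts) were used. The unit was inferred from the values. The submitters' processing notes list CASAVA 1.7.0, while the aligner and genome build were not given in the sources used here. Transcripts were named with a RefSeq table (GRCm38.p6) and GENCODE; 1258 unnamed transcripts (1.94% of summed RPKM) were left out, and the row with the highest mean stood for each gene (Eng has 3 rows, Pecam1 and Emcn 2 each).

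Depth was recovered from the steps of low values, of which 58.2 to 78.5% lay within 0.12 of whole reads (24% by chance), too few for a count test. The deep and shallow classes were defined from it after the data had been seen. All genes averaging at least 1 RPKM were fitted on the log2(RPKM + 1) scale, on which changes of low genes come out too small. The fits used limma 3.58.1 (trend, two-sided) in R 4.3.3, and p-values were adjusted by Benjamini-Hochberg over the tested genes, at a threshold of 0.05. Transcript lengths came from GENCODE. The fits were tested on simulated data. Python 3.11.15, numpy 2.4.6, scipy 1.17.1, pandas 2.3.3 and matplotlib 3.10.9 were also used. Each animal gave 1 library, so errors include technical variation.

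The 10 genes and the lists were chosen with earlier results of these data known. The text names all 10 genes, 5 ligands (Vegfa, Vegfc, Pgf, Angpt1 and Angpt2), the members of each other list with the smallest p or the highest mean, the 10 genes most and the 5 least like the 10 by mean r, and the 3 highest and 3 lowest tumours. Further genes named by their calls or their known role (such as Vegfd, Tgfb1, Esm1, Itga2b and Dll4) were chosen after their values were seen. The alternatives were another pseudocount (0.1), a filter at 5 RPKM or none, median-ratio scaling, depth class as covariate, each depth class alone, all rows of a gene summed, ranks, and leaving out tumours. Some genes are not reported here.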

Additional observations from a re-analysis of the deposited data

How the results depend on the processing

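No paired analysis was possible because all 30 tumours are in 1 group. The slopes of the 10 genes on the core endothelial, stroma matrix, mural, adipocyte and proliferation scores kept their sign under every alternative and with any 1 tumour left out. Slopes that were not called changed sign more often: under the alternatives for 8 genes on Vegfa and 7 on hypoxia, and with 1 tumour left out for 3 genes each on Vegfa, on hypoxia and by depth class. At a filter of 5 RPKM only 6 of the 10 genes are tested, while all 10 still served as predictors in the ordered pairs. The counts there were 6 for the core endothelial, 6 for the mural and 6 for the stroma score. They were 5 for the adipocyte score and 0 for mural at equal core score. At this filter 49 ordered pairs and 21 pathway genes were called. With the usual filter 51 of 78 pathway genes were called, or 40 of 67 without the genes of the score itself. Fewer pairs and fewer pathway genes can be tested at 5 RPKM, so 49 and 21 cannot be set directly against the usual counts. Mural at equal core score (1 gene, Flt1) was also 0 with a pseudocount of 0.1, no filter, depth class as covariate, summed rows, ranks, in deep libraries, in shallow libraries, with the 2 most extreme tumours of the score left out, without animals 3273 and 4036 and without animal 4438. The proliferation count was 4 with median-ratio scaling (factors 0.924 to 1.06), 0 in deep and 1 in shallow libraries, 1 without the 2 most extreme tumours, 2 without animals 3273 and 4036 and 3 without animal 4438. The adipocyte count was 1 in deep and 4 in shallow libraries, and 2 without the 2 most extreme tumours or without animals 3273 and 4036. The mural count was 0 in shallow libraries, without the 2 most extreme tumours and without animals 3273 and 4036. Deep libraries gave 52 ordered pairs and 29 pathway genes. Leaving out 1 tumour at a time gave proliferation counts of 2 to 9, mural at equal core score 0 to 1 and leucocyte at equal core score 0 to 1 (Kdr, without animal 4020 or 4142). Without animals 3273 and 4036, 1362 of all tested genes were called on proliferation and 437 on the adipocyte score, in either direction. The smaller subsets hold fewer tumours, and beyond that the cause was not tested. Leaving out animal 4150 or using the length slope as covariate, both chosen after seeing the data as were the fits without animals 3273, 4036 and 4438, kept the counts named here within 1.5 times, except that the length slope as covariate took the ordered pairs called at equal core score to 1, against 6. Read counts were not recovered well enough for counting intervals.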
